A study of Caenorhabditis elegans with 26 samples.

Results

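The genes described here are autosomal genes of Caenorhabditis elegans that stood higher in both kinds of dosage compensation mutant XX embryo than in wild-type XX embryos. They were chosen by their measured values: a difference of group means of at least 1 on the log2 scale, which is a doubling, in sdc-2 embryos and again in dpy-27 embryos, with both mutant means above 7. Genes of 13 symbol families and genes whose kept probe set can match several transcripts were left out. The selection found 12 genes among the 3280 autosomal genes that met every other condition, out of 14750 autosomal genes and 17118 genes measured. Of the 12, 11 are annotated as protein-coding and 1, T09F5.12, as a long non-coding RNA. Chromosome IV holds 5 of them (cdgs-1, dbd-13, F42A9.6, ipla-7 and pdtf-1), III holds 3 (abcf-2, B0303.14 and tif-1A), V holds 2 (T09F5.12 and tag-120), and I (F26E4.2) and II (srlf-34) hold 1 each. Chromosome IV carries 18.3% of the 3280 eligible genes, III 21.6%, V 17.4%, I 22.2% and II 20.5%.

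In C. elegans hermaphrodites, which are XX, the dosage compensation complex binds both X chromosomes and lowers their output, so that it approaches that of the single X of XO males. The complex is recruited by SDC-2, and its subunit DPY-27 resembles a subunit of condensin, the machine that compacts chromosomes. Loss of the complex is known to raise X-linked expression. The 12 genes have varied annotated roles, among them factors for making ribosomal RNA and ribosomes (tif-1A and abcf-2) and enzymes of membrane lipids (cdgs-1 and ipla-7).

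Embryos from bleached gravid adults were profiled on 26 Affymetrix expression arrays, 1 per sample, and the series text calls the replicates biological. Each mutant has wild-type XX controls from the same kind of plate, and the dates in the sample titles were numbered from 1, the earliest, to 5 (date codes). The sdc-2 embryos were XX, carried the y93 allele and came from worms fed bacteria with an sdc-2 plasmid for RNA interference (3 arrays, date code 5). Their controls were N2 worms fed bacteria with a plasmid that had no insert (3 arrays, date code 3). The dpy-27 embryos were XX, carried the y57 allele and came from NG plates (3 arrays, date code 1), as did their wild-type XX controls (3 arrays, date code 2). The XO embryos, strain TY2222 from egg plates, carried y9 of xol-1, y74 of sdc-2, e101 of unc-9 and hv1y101 of her-1 (8 arrays, of which 3 have date code 2 and 5 have date code 5). Their controls were wild-type XX embryos from egg plates (6 arrays, of which 3 have date code 2 and 3 have date code 4). Each mutant group of XX embryos therefore has its own date code, apart from that of its controls, and genotype and date cannot be told apart in either comparison that chose the genes.

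The deposited values are log2 expression values from RMA, and a level of 7 or a difference of 1 below is on that scale. Their spread over probe sets differed between plate types (SD 2.00 to 2.06 for RNAi, 2.27 to 2.32 for egg and 2.41 to 2.45 for NG plates), which appear to have been normalised apart, so levels are compared only within a plate type. Arrays give no read depth, and their number limits the precision. The probe sets of sdc-2 and dpy-27 themselves do not check the genotypes in the XX mutants. The sdc-2 transcript differed by -0.36 in sdc-2 embryos (limma adjusted p = 0.158) and the dpy-27 transcript by -0.05 in dpy-27 embryos (adjusted p = 0.842). In XO embryos the sdc-2 transcript fell by 5.10 (adjusted p = 6.88e-20). The samples are whole embryos, in which fewer cells of a type and less RNA per cell cannot be told apart.

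Of the 3280 eligible genes, 51 (1.55%) differed by at least 1 in sdc-2 embryos, 157 (4.79%) did so in dpy-27 embryos, and 12 (0.366%) did so in both. These shares describe the choice of genes and are not tested. For all 12 genes, every mutant array lay above every control array of its plate type. The same arrays chose the genes by a mean difference of at least 1, so this separation is not separate support. The share of other genes separated in this way is not given here, so the count does not set the 12 apart. The smallest gap between the lowest mutant and the highest control array was 0.41 in the sdc-2 comparison (tag-120) and 0.48 in the dpy-27 comparison (T09F5.12). The difference was larger in sdc-2 than in dpy-27 embryos for 7 of the 12. In sdc-2 embryos dbd-13, srlf-34 and ipla-7 stood far above the rest, and the other 9 differed by 1.00 to 1.59.

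**Figure D1:**
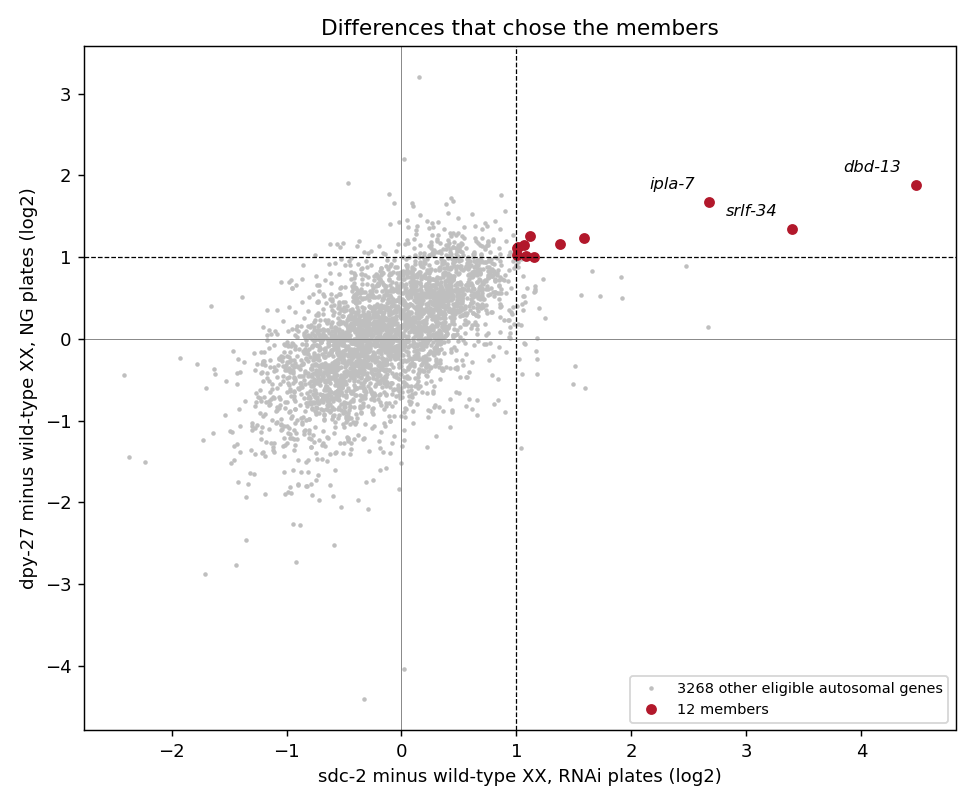
Difference of group means (log2) in sdc-2 embryos (x axis) against that in dpy-27 embryos (y axis) for the 3280 eligible autosomal genes, with the 12 chosen genes marked and the threshold of 1 drawn on both axes. The chosen genes fill the upper right corner by construction, and dbd-13 lies farthest out at 4.47 and 1.89.

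The abcf-2 gene (T27E9.7, probe set 173474_at, chromosome III) encodes an ATPase of the ABC-F family, whose yeast relative Arb1 acts in making ribosomes. It read 10.45, 11.12 and 10.86 in sdc-2 embryos against 9.47, 9.37 and 9.43 in controls, a difference of 1.38. In dpy-27 embryos it read 10.81, 10.90 and 10.77 against 9.54, 9.54 and 9.93, a difference of 1.16. The mutant arrays were high in both sets, with the sdc-2 array of replicate A nearest to the controls. A second probe set of the gene, 191496_s_at, which can match several transcripts, did not follow it, with differences of -0.15 and -1.12.

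The tif-1A gene (C36E8.1, 173327_at, chromosome III) encodes the initiation factor of RNA polymerase I, known as Rrn3 in yeast, which the polymerase needs to start on ribosomal RNA genes. Its levels were 10.73, 11.07 and 11.05 in sdc-2 embryos and 9.99, 9.80 and 9.81 in controls (difference 1.08). They were 10.49, 10.41 and 10.46 in dpy-27 embryos and 9.26, 9.45 and 9.62 in controls (difference 1.01). Its dpy-27 arrays lay closer to one another than those of the other 11 genes, with an SD of 0.04. Its other probe set, 186636_s_at, differed by 0.51 and 0.16.

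Among the lipid enzymes, cdgs-1 (C33H5.18, 173995_at, chromosome IV) encodes CDP-diacylglycerol synthase, which makes the precursor of phosphatidylinositol and cardiolipin. Levels of 11.10, 11.71 and 11.38 in sdc-2 embryos stood against 10.43, 10.47 and 10.29 in controls, a difference of 1.00. In dpy-27 embryos they were 11.14, 10.98 and 11.06 against 10.12, 9.92 and 10.08, a difference of 1.02. It met the threshold by the narrowest margin, and its second probe set, 191717_s_at, differed by 0.53 and 0.58. The other lipid enzyme, ipla-7 (T04B2.5, 175508_at, chromosome IV), belongs to the calcium-independent phospholipase A2 family, which cleaves a fatty acid from phospholipids. It read 9.81, 10.23 and 10.29 in sdc-2 embryos against 7.28, 7.86 and 7.16 in controls, a 6.39-fold difference. In dpy-27 embryos it read 8.40, 8.29 and 8.31 against 6.81, 6.53 and 6.64, a 3.20-fold difference. The gaps between the lowest mutant and the highest control array were 1.95 and 1.49, and the SDs of the groups were 0.06 to 0.38. These arrays chose the gene, so the gaps are not separate support for it. A second probe set, 179175_at, differed by 1.80 and 0.54.

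The largest difference was that of dbd-13 (C42D4.3, 180540_at, chromosome IV). Its levels in sdc-2 embryos were 12.91, 12.82 and 13.04 against 8.24, 8.91 and 8.20 in controls, a 22.2-fold difference. In dpy-27 embryos they were 10.64, 10.37 and 10.29 against 8.79, 8.31 and 8.54, a 3.70-fold difference. Next came srlf-34 (ZK970.7, 190585_at, chromosome II), whose control levels lay below the median of the arrays. It read 10.01, 9.77 and 9.59 in sdc-2 embryos against 6.32, 6.39 and 6.47, a 10.5-fold difference. In dpy-27 embryos it read 6.99, 7.48 and 6.62 against 5.52, 5.55 and 5.98, a 2.54-fold difference, and the dpy-27 mean of 7.03 was just above the level the rule asks for.

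F42A9.6 (180551_at, chromosome IV) read 9.37, 9.63 and 9.64 in sdc-2 embryos against 7.95, 7.90 and 8.04 in controls (difference 1.59). It read 10.15, 10.38 and 10.36 in dpy-27 embryos against 9.41, 8.70 and 9.07 (difference 1.24). F26E4.2 (178600_at, chromosome I) was one of the genes with the larger difference in dpy-27 embryos. Its levels were 8.11, 8.37 and 8.50 against 7.0, 7.59 and 7.02 in the sdc-2 comparison (difference 1.12). They were 8.01, 7.95 and 8.41 against 6.92, 6.82 and 6.86 in the dpy-27 comparison (difference 1.26). For tag-120 (F40F9.2, 193654_at, chromosome V) the sdc-2 arrays reached down to the controls more closely than for any other chosen gene. They read 8.32, 8.84 and 8.98 against 7.42, 7.91 and 7.35 (difference 1.16), while dpy-27 embryos read 8.00, 7.70 and 7.87 against 6.90, 6.77 and 6.90 (difference 1.00).

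For pdtf-1 (T26A8.1, 175087_at, chromosome IV) the sdc-2 arrays read 8.76, 9.08 and 9.05 against 8.07, 7.90 and 7.92 (difference 1.00). The dpy-27 arrays read 9.54, 9.39 and 9.32 against 8.28, 8.19 and 8.44 (difference 1.11). Its second probe set, 183297_at, differed less, by 0.28 and 0.63. B0303.14 (173796_at, chromosome III) read 8.62, 9.08 and 8.93 in sdc-2 embryos against 7.95, 7.55 and 7.93 (difference 1.06). In dpy-27 embryos it read 9.71, 9.67 and 9.42 against 8.44, 8.18 and 8.71 (difference 1.15). Its second probe set, 192179_s_at, which can match several transcripts, did not follow it, at -0.22 and 0.04. The non-coding T09F5.12 (175195_at, chromosome V) read 8.33, 8.69 and 9.0 in sdc-2 embryos against 7.73, 7.69 and 7.56 (difference 1.01). Its dpy-27 arrays read 8.82, 8.74 and 8.38 against 7.89, 7.16 and 7.52 (difference 1.12).

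**Figure D2:**
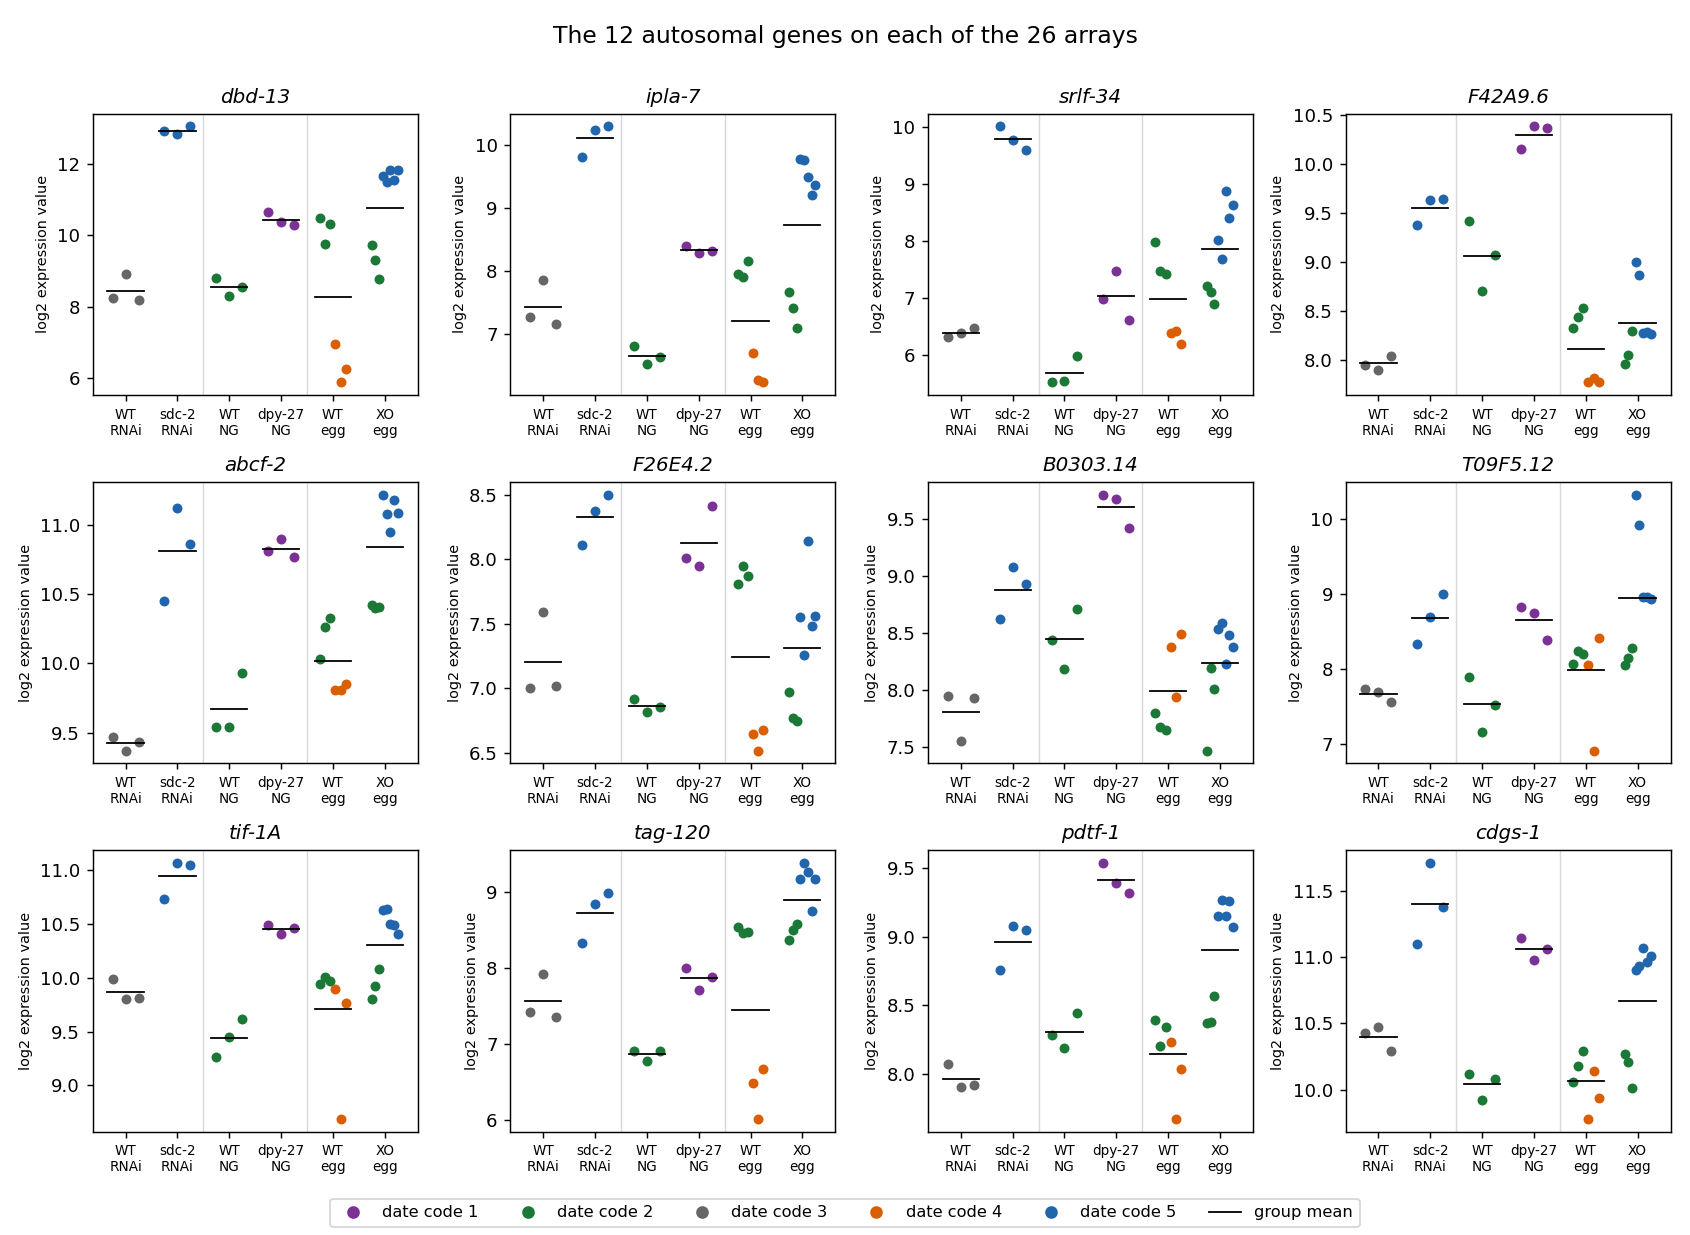
Level (log2) of each of the 12 genes on every array, by group and plate type, with 1 point per array coloured by date code and a line at the group mean. In the RNAi-plate and NG-plate groups, whose arrays chose the genes, all mutant points lie above all control points. In the egg-plate groups the points separate by date code within a genotype for most genes. Dates overlap in XO embryos for F42A9.6 and in wild-type embryos for T09F5.12, pdtf-1 and cdgs-1.

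Near the threshold, the smaller of the 2 differences was 1.002 for cdgs-1, 1.003 for pdtf-1, 1.004 for tag-120 and 1.009 for tif-1A. Just outside were vps-72 (0.972), a subunit of a chromatin remodelling complex, and vhp-1 (0.968), a MAP kinase phosphatase. They were followed by zyg-1 (0.95), the kinase that starts centriole duplication, and tpra-1 (0.94). The edge of the group is therefore continuous with the genes beyond it. Another 5 autosomal genes met the thresholds and were left out by the rule's exclusions: cpi-1 (4.11 in sdc-2 and 2.06 in dpy-27 embryos), a cystatin, grl-21 (3.87 and 1.12), nhr-2 (1.19 and 1.00), a nuclear receptor, clec-5 (1.11 and 2.12) and ima-1 (1.08 and 1.19), an importin alpha.

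The XO embryos took no part in the choice of genes, and they ask whether the same genes stand apart in embryos that carry an sdc-2 mutation with 1 X chromosome. Over all 14 egg-plate arrays, 9 of the 12 genes rose in XO embryos, none fell, and all 12 had a difference above 0 (limma on all 26 arrays, adjusted p under 0.05 over 17118 genes). Across all genes 15.8% rose and 14.1% fell, and of the 3280 eligible genes 31.9% rose. The median difference was 0.79 over the 12 genes, 0.13 over the eligible genes and 0.00 over all genes. This count did not hold among arrays of 1 date. With date code as a block, 0 of the 12 rose and 3 fell, where 21.9% of all genes rose and 19.6% fell. At an unadjusted p under 0.05 in the same limma fit, 1 (abcf-2) was higher and 4 were lower. The median over the 12 was then -0.03, against 0.21 over the eligible genes and 0.02 over all genes. Date code 2 is the only one that holds both genotypes, so this fit takes its estimate from 3 XO and 3 wild-type arrays. In a fit to those 6 arrays alone, 0 rose and 5 fell, where 23.3% of all genes rose and 21.6% fell, and the unadjusted counts were also 0 and 5. Shares of all genes at the unadjusted cut are not given here for either fit, so the unadjusted counts have no background beside them.

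For abcf-2 the XO levels ran from 10.40 through a median of 11.02 to 11.22, and the wild-type levels from 9.81 through 9.94 to 10.33, so that all 8 XO arrays lay above all 6 controls. It rose by 0.83 (SE 0.14, adjusted p = 0.000112). At date code 2 the XO arrays read 10.42, 10.40 and 10.41 against 10.03, 10.26 and 10.33, and with date as a block the difference was 0.20 (SE 0.09, adjusted p = 0.0821). It was the 1 gene of the 12 whose date code 2 XO arrays all lay above the controls of that date.

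For tif-1A the XO levels ran from 9.80 through 10.45 to 10.64 and the wild-type levels from 8.69 through 9.92 to 10.01. The 0.59 rise (SE 0.17, adjusted p = 0.00997) was -0.04 with date as a block (SE 0.21, adjusted p = 0.909). At date code 2 the 2 genotypes overlapped. For cdgs-1 they ran from 10.01 through 10.91 to 11.07 and from 9.78 through 10.10 to 10.29, a rise of 0.60 (SE 0.15, adjusted p = 0.00351) that was -0.02 with the block (SE 0.10, adjusted p = 0.915). For pdtf-1 they ran from 8.37 through 9.11 to 9.27 and from 7.67 through 8.21 to 8.39, a rise of 0.76 (SE 0.14, adjusted p = 0.000294) that was 0.13 with the block (SE 0.12, adjusted p = 0.433). In each of these the date code 5 XO arrays lay above all controls and the date code 2 XO arrays among or beside them.

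The 3 genes with the largest sdc-2 differences separated by date over a wider range. The dbd-13 levels at date code 2 were 9.73, 9.31 and 8.78 in XO and 10.48, 9.76 and 10.30 in wild-type embryos. At date code 5 the XO arrays read 11.65, 11.48, 11.83, 11.55 and 11.82, and at date code 4 the wild-type arrays read 6.97, 5.89 and 6.25. Over all arrays it rose by 2.49 (SE 0.66, adjusted p = 0.00569), and with date as a block it fell by 0.91 (SE 0.26, adjusted p = 0.00932). Within a genotype its level thus differed more between dates than between genotypes at date code 2.

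The ipla-7 arrays at date code 2 read 7.67, 7.41 and 7.10 in XO against 7.95, 7.90 and 8.16 in wild-type embryos. Those of date code 5 read 9.78, 9.75, 9.49, 9.21 and 9.36, and those of date code 4 read 6.71, 6.27 and 6.24. Its rise of 1.52 (SE 0.41, adjusted p = 0.00668) turned with the block, where it fell by 0.61 (SE 0.17, adjusted p = 0.00877). The second probe set of ipla-7 likewise differed by 0.85 over all arrays and by -0.66 at date code 2. For srlf-34 the date code 2 arrays read 7.21, 7.10 and 6.89 in XO against 7.98, 7.48 and 7.42 in wild-type embryos. Its rise over all arrays was 0.87 (SE 0.30, adjusted p = 0.0319), against a difference of -0.56 with the block (SE 0.23, adjusted p = 0.0673). All 3 XO arrays of date code 2 lay below the controls of that date for each of these 3 genes.

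The tag-120 gene rose by 1.46 over all arrays (SE 0.33, adjusted p = 0.00148), with XO levels from 8.36 through 8.95 to 9.38 and wild-type levels from 6.01 through 7.57 to 8.53. Its date code 2 arrays read 8.36, 8.49 and 8.58 against 8.53, 8.46 and 8.47, and the difference with the block was -0.01 (SE 0.16, adjusted p = 0.97). The low wild-type values came from date code 4, at 6.48, 6.01 and 6.67. T09F5.12 rose by 0.96 (SE 0.29, adjusted p = 0.0155), and its difference was -0.02 with the block (SE 0.37, adjusted p = 0.978). Its highest XO arrays were replicates A and B of date code 5, at 10.32 and 9.92, where the other 3 of that date read 8.95, 8.95 and 8.93. Without the date code 4 wild-type array of replicate B, the call was lost (0.75, adjusted p = 0.0519). The call of srlf-34 was lost in 7 of 14 leave-one-out fits, with a range of 0.72 to 1.07.

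The other 3 genes were not called over all arrays. F26E4.2 differed by 0.06 (SE 0.24, adjusted p = 0.879), while at date code 2 it read 6.97, 6.77 and 6.75 in XO against 7.81, 7.95 and 7.87 in wild-type embryos. With date as a block it fell by 1.05 (SE 0.16, adjusted p = 6.33e-05). F42A9.6 differed by 0.27 (SE 0.16, adjusted p = 0.227) and by -0.33 with the block (SE 0.17, adjusted p = 0.151). It fell in the fit to date code 2 alone (adjusted p = 0.0212). B0303.14 differed by 0.25 (SE 0.16, adjusted p = 0.273) and by 0.18 with the block (SE 0.16, adjusted p = 0.432).

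The egg plates hold arrays of 1 genotype from different dates, compared here between date codes 2 and 5 and between 2 and 4. Date codes 1 and 3, which enter the comparisons that chose the genes, have no egg-plate arrays. These 2 comparisons and the date-block fit share arrays with one another. Between date codes 2 and 5 of XO embryos, all 12 genes were higher at date code 5 with adjusted p under 0.05 (median 0.75), where 19.4% of all genes rose, 21.1% fell and 30.6% of eligible genes rose. The rises ran from 0.44 for F42A9.6 (SE 0.16, adjusted p = 0.0352) to 2.40 for dbd-13 (SE 0.23, adjusted p = 1.21e-06). Between date codes 2 and 4 of wild-type embryos, 8 of the 12 were lower at date code 4 and 1, B0303.14, was higher (0.56, SE 0.16, adjusted p = 0.0130). There 18.9% of all genes fell, 21.2% rose and 21.4% of eligible genes fell, and the median over the 12 was -0.58 against 0.12 over the eligible genes. The differences reached -3.81 for dbd-13 (SE 0.26, adjusted p = 8.41e-08) and -2.10 for tag-120 (SE 0.16, adjusted p = 1.68e-07). The date code 5 XO arrays were the highest of the 4 egg-plate sets in 11 of 12 genes and the date code 4 wild-type arrays the lowest in 11 of 12. The exceptions were F26E4.2, highest in wild-type embryos of date code 2, and B0303.14, lowest there. The share of all or eligible genes in this order is not given here, so these counts do not show that it is particular to the 12. Date code 5 is also that of the sdc-2 embryos, and date code 2 that of the dpy-27 controls.

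**Figure D3:**
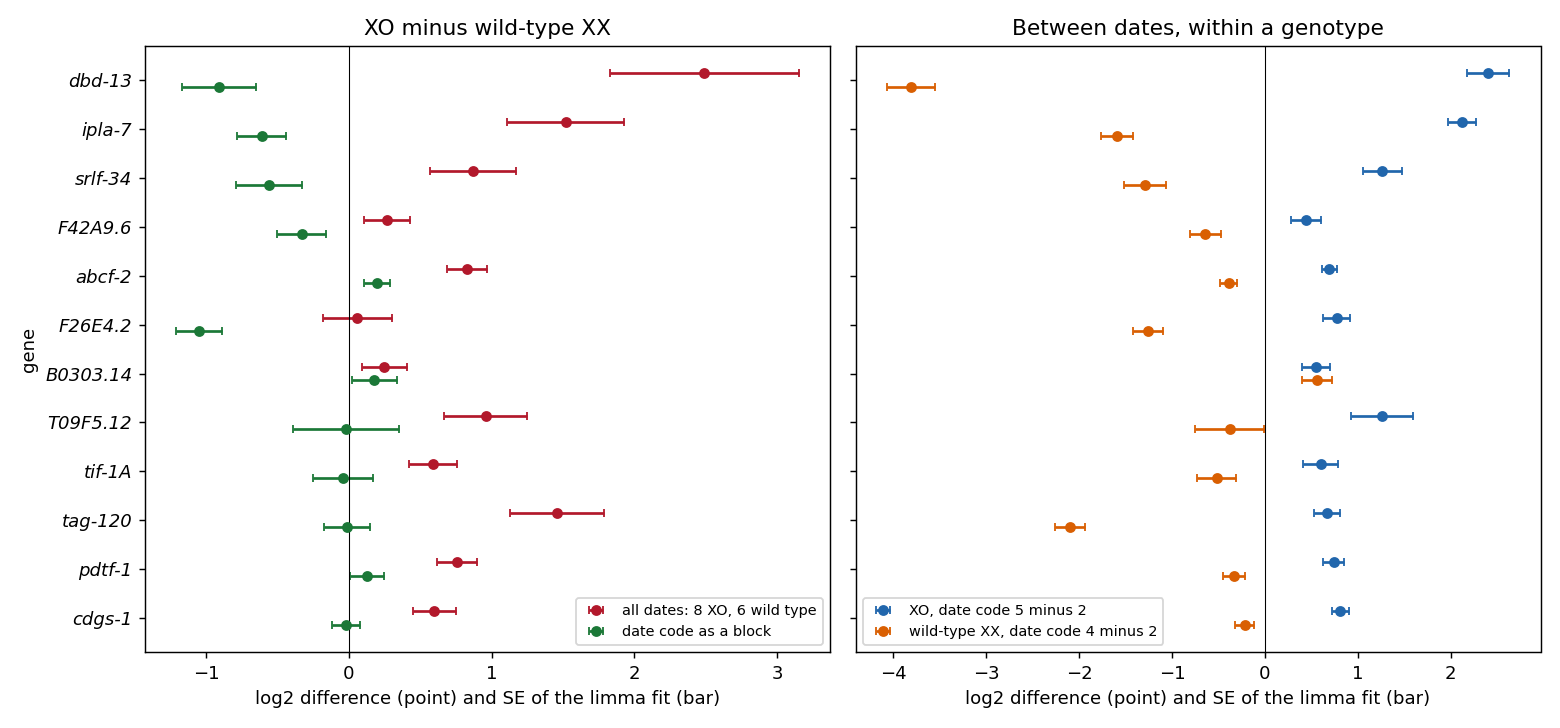
Log2 difference with its SE for each of the 12 genes in XO against wild-type XX embryos, over all arrays and with date code as a block, and between dates within a genotype. All 12 lie above 0 over all arrays and 3 do with the block, while the date code 5 against 2 contrast lies above 0 for all 12.

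Markers of embryonic tissues and stages moved between the same dates, and their part in the results above was not tested. None of the 12 genes is among the 16 marker and pathway lists used. Among 30 neuron markers, 22 fell and 1 rose from date code 2 to date code 4 of wild-type embryos (median -0.75), while 16 rose and 3 fell from date code 2 to 5 of XO embryos (0.58). Their summed level was 14 to 14.02 in wild-type embryos of date code 2 and 13.29 to 13.40 at date code 4, and 13.36 to 13.66 in XO embryos of date code 2 and 13.99 to 14.05 at date code 5. Of 14 pharynx markers, 9 fell and 2 rose in the first contrast and 8 rose and 0 fell in the second. Their summed levels in the same order were 13.52 to 13.60, 12.80 to 13.01, 12.50 to 12.77 and 12.99 to 13.32. Of 15 measured intestine markers, 11 fell and 0 rose in the first and 7 rose and 2 fell in the second, and they summed to 13.75 to 13.91, 12.52 to 12.75, 12.49 to 12.97 and 13.14 to 13.45. Of 25 body wall muscle markers, 19 fell and 0 rose, then 13 rose and 7 fell. Of 25 germline markers, 21 rose and 0 fell in the first contrast, and 2 rose and 10 fell in the second. Of 28 early maternal messages, 20 rose and 0 fell in the first, and 8 rose and 2 fell in the second (median 0.07). Of 29 early zygotic regulators, 20 rose and 2 fell, then 4 rose and 12 fell. Of 26 markers of late embryo epidermis and cuticle, 2 rose and 8 fell, then 4 rose and 16 fell.

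The same markers and some further lists were counted in the comparisons that chose the genes. There 8.28% of all genes rose and 11.5% fell in sdc-2 embryos, and 17% rose and 13.5% fell in dpy-27 embryos. Late embryo epidermis and cuticle markers were called lower more often than higher in both: of 26, 1 rose and 8 fell in sdc-2 embryos (median -0.43), and 3 rose and 15 fell in dpy-27 embryos (median -0.50). Their summed level was 16.33 to 16.35 in sdc-2 embryos against 16.72 to 16.77 in controls, and 15.23 to 15.35 in dpy-27 embryos against 16.14 to 16.32. Of 19 measured genes for heat shock and unfolded protein, 0 rose and 3 fell in sdc-2 embryos, and 0 rose and 11 fell in dpy-27 embryos (median -0.90), with summed levels of 15.16 to 15.28 against 16.06 to 16.12 in the latter. Other lists went the other way: of 22 genes of sex determination and X counting, 8 rose and 0 fell in each mutant. Of 42 measured genes for antimicrobial peptides and immune effectors, 12 rose and 2 fell in sdc-2 embryos, and 4 rose and 7 fell in dpy-27 embryos. The lists were not split into X-linked and autosomal genes, and their part in the differences of the 12 genes was not tested. Of 30 neuron markers, 1 rose and 3 fell in sdc-2 embryos, with summed levels of 14.33 to 14.60 against 14.09 to 14.42. In dpy-27 embryos 3 rose and 3 fell, with summed levels of 13.74 to 13.85 against 13.40 to 13.52. Of 25 body wall muscle markers, 5 rose and 3 fell in sdc-2 embryos, and 9 rose and 6 fell in dpy-27 embryos. Of 15 intestine markers, 1 rose and 1 fell in sdc-2 embryos, and 1 rose and 6 fell in dpy-27 embryos. Of 28 early maternal messages, 7 rose and 1 fell in sdc-2 embryos, while 1 rose and 8 fell in dpy-27 embryos. Of 14 pharynx markers, 1 rose and 1 fell in sdc-2 embryos, and 2 rose and 3 fell in dpy-27 embryos. Of 25 germline markers, 1 rose and 1 fell, and 2 rose and 7 fell. Of 29 early zygotic regulators, 0 rose and 2 fell in sdc-2 embryos, and 6 rose and 2 fell in dpy-27 embryos.

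**Figure D4:**
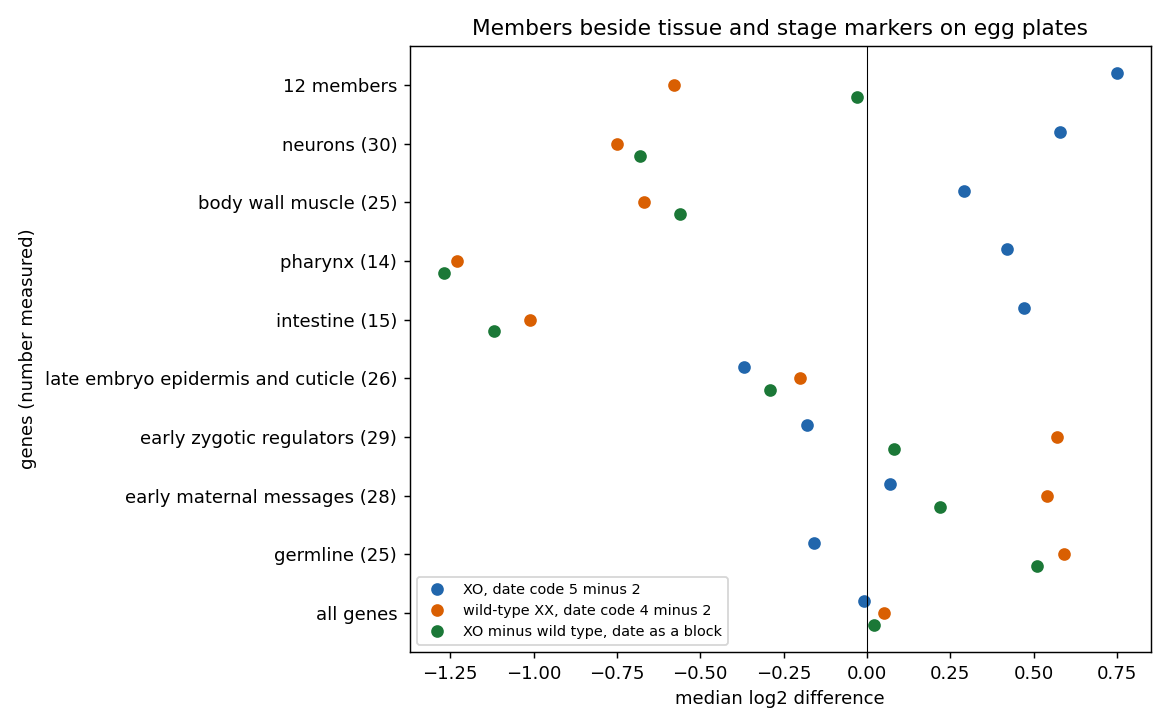
Median log2 difference of each marker list in the comparisons of XO embryos and of dates within a genotype. Neuron, muscle, pharynx and intestine lists lie below 0 from date code 2 to 4 of wild-type embryos and above 0 from date code 2 to 5 of XO embryos.

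Genes related to or lying next to the 12 were also read. Of the nearest measured neighbours on either side, 24 in all, 0 differed by at least 1 in sdc-2 embryos, 3 in dpy-27 embryos and 0 in both. The 3 were zgpa-1 and ric-3 beside cdgs-1, and T26A8.4 beside pdtf-1. Among eligible genes the shares were 1.55%, 4.79% and 0.366%, so 0 of 24 in both does not set the neighbours apart. Several neighbours also lay below the level of 7 that eligible genes reach. Of the 24, 11 were above 0 in both, with medians of 0.07 in sdc-2 and 0.10 in dpy-27 embryos. The nearest to the 12 in size was sur-6, a regulatory subunit of protein phosphatase 2A beside F26E4.2, at 0.97 and 0.87. Relatives are counted here by adjusted p under 0.05, whereas the 12 were chosen by difference and level alone. Of 12 other dbd genes, 1 rose and 1 fell in sdc-2 embryos and 0 rose and 3 fell in dpy-27 embryos. The 1 that rose was the X-linked dbd-20 (2.57, adjusted p = 0.00763). It also differed by 1.14 in dpy-27 embryos (adjusted p = 0.21), with mutant means of 9.76 and 8.19, so it met the rule's differences and levels in both mutants. Of 6 other ipla genes, 2 rose and 0 fell in sdc-2 embryos, and 2 rose and 2 fell in dpy-27 embryos. The risers in both mutants were ipla-1 (0.79, adjusted p = 0.0192, and 0.85, adjusted p = 0.00735) and the X-linked ipla-2 (1.78, adjusted p = 4.01e-06, and 0.92, adjusted p = 0.0013). The genes that fell in dpy-27 embryos were ipla-3 (-0.65, adjusted p = 0.0226) and ipla-6 (-0.57, adjusted p = 0.00141). Of 23 other srlf genes, 0 rose and 2 fell in sdc-2 embryos, and 2 rose and 0 fell in dpy-27 embryos. The 2 other abcf genes, abcf-1 and abcf-3, differed by 0.24 and -0.27 in sdc-2 and by -0.12 and -0.07 in dpy-27 embryos, and neither was called.

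Ribosome production, the process that tif-1A and abcf-2 serve, was read in 28 other measured genes from a list drawn up after the 12 were known. It holds subunits of RNA polymerase I, nucleolar proteins and assembly factors. In sdc-2 embryos 0 of the 28 rose and 10 fell, with a median of -0.37, where 8.28% of all genes rose and 11.5% fell. Of the 3280 eligible autosomal genes, 383 rose and 836 fell there (median -0.13). In dpy-27 embryos 4 rose and 6 fell (median -0.10), where 17% of all genes rose and 13.5% fell, and 861 of the eligible genes rose and 595 fell. In XO embryos 2 rose and 13 fell over all arrays (median -0.32), and 4 rose and 8 fell with date as a block (median 0.08). The list first held cgr-1 as well, a gene of Ras signalling that was taken out as misplaced after its values had been computed. With it, 5 of 29 rose and 6 fell in dpy-27 embryos, and in sdc-2 embryos the counts stayed at 0 and 10.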

How the data were processed

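The deposited tables hold log2 expression values per probe set, made by the authors with RMA per the submitters' processing notes. The sources used here give no version of it. Of 22548 probe sets, 20766 name 1 gene. For each gene the probe set with the highest mean was kept, giving 17118 genes. Symbols and chromosomes came from the RefSeq gene table. No coordinates are given, because no source used here names the files' build. The tests were those of limma (version 3.58.1, run in R 4.3.3), with a mean for each group over 26 arrays (20 residual and 3.21 prior degrees of freedom), two-sided, with Benjamini-Hochberg adjustment over all genes. Date contrasts used the 14 egg-plate arrays, with 1 mean for every group at every date code. The sdc-2 and dpy-27 differences chose the genes and are described without a test. Calls of other genes in those comparisons come from the same fit. The scripts were tested on simulated data.

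The genes and lists were chosen with earlier results of these data known. The ribosome production list was drawn up after the 12 genes were known, and cgr-1 was removed from it after its values had been computed. Both versions are reported. Genes were named if they were members, lay just inside or outside the threshold, were dropped by the rule's exclusions, or were neighbours, relatives or list genes that a result turns on. Several of the last kind were picked after their values were seen. Other settings changed the fit's samples, date or replicate block, normalisation, array weights, low-value filter and probe sets.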

Additional observations from a re-analysis of the deposited data

Results flagged for a closer look

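A single wild-type egg-plate array, replicate B of date code 4, stood apart from the other 5 of its group for 2 of the 12 genes. T09F5.12 read 6.91 there, and the nearest other array read 8.05, a gap of 0.76 of the group's whole range. For tif-1A it read 8.69, and the nearest other array read 9.77, a gap of 0.82 of the range. With 24 such checks, each of a gene in a group of arrays, chance alone marks about 1 in 20. Both flagged values come from the same array, so those checks are not independent. The wild-type egg-plate group spans date codes 2 and 4.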

How the results depend on the processing

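The number of genes called higher or lower in XO embryos went from 9 to 3 with date code as a block and 5 at date code 2 alone. Those called higher went from 9 to 0 in both, and those called lower from 0 to 3 and 5. In both fits the direction turned for dbd-13 (-0.91), ipla-7 (-0.61), srlf-34 (-0.56), F42A9.6 (-0.33), F26E4.2 (-1.05), tif-1A (-0.04), T09F5.12 (-0.02), cdgs-1 (-0.02) and tag-120 (-0.01). With the replicate letter as a replicate block, 2 genes were called, both higher. Same-lettered arrays of date code 2 did not deviate together (correlations of 0.019, -0.095 and -0.043). This gives no sign that the letters pair the samples, but 3 arrays per group cannot exclude it. F26E4.2 turned to -0.15 with array weights and -0.01 with the replicate block, and B0303.14 to -0.16 with the mean of its probe sets. Leaving out 1 egg-plate array at a time gave 7 to 9 called genes, with F26E4.2 between -0.08 and 0.20. In the fit to egg-plate arrays alone 7 were called.

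The number of genes that meet the rule was 19 after re-centring each array on its autosomal median, which moved the median of all genes by 0.06 in sdc-2 and 0.10 in dpy-27 embryos and kept all 12. It was 7 with the mean of each gene's probe sets, which lost abcf-2, B0303.14, tif-1A, pdtf-1 and cdgs-1. It was 15 after joint quantile normalisation, with 10 kept, and 17 without the exclusions, a setting added after seeing the data. Leaving out 1 of the 12 XX arrays gave 9 to 18, and only dbd-13, ipla-7, F42A9.6, abcf-2 and F26E4.2 stayed in all of them. The cause of these changes was not tested.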
